A study of Mus musculus with 15 samples.

Results

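The comparison described here was between sorted aortic macrophages labelled Olfr2+ and Olfr2- in the sequencing columns that had similar depth. The members were chosen by column total: the columns of the count table below 60 M counts (M, 1000000), which are 8 of the 15 columns: 3 labelled Olfr2+ (3D, 4A and 4B) and all 5 labelled Olfr2- (1A, 3A, 3B, 4A and 4B). The totals are given as a description only. The totals were 33.8, 37.6 and 29.9 M counts in Olfr2+ 3D, 4A and 4B, and 30.5, 53.2, 31.8, 41.8 and 32.1 M in Olfr2- 1A, 3A, 3B, 4A and 4B. The column just inside the limit was Olfr2- 3A, at 53.2 M, and the one just outside was an Olfr2+ column at 76.0 M. The 7 deeper columns were all labelled Olfr2+ and had no Olfr2- counterpart, so they stayed out of the comparison.

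All cells were F4/80+ CD64+ macrophages sorted from aortas of the atherosclerosis-prone Apoe-/- mouse, which is deficient in apolipoprotein E, after 4 weeks on a high-fat (Western) diet. The Olfr2- cells shared this genotype, diet and gate and differed in the label of the sort. Cell suspensions were pooled from the aortas of 4 female mice, sorts of 100 to 200 cells were taken as technical replicates, and cDNA was made by Smart-Seq2, a low-input method in which it is amplified by PCR (18 cycles here) before sequencing. Columns that share a number were taken to be repeats of 1 sorted sample, which the labels do not spell out. On this reading the comparison held 2 Olfr2+ samples (3 and 4) and 3 Olfr2- samples (1, 3 and 4). No label ties the samples to separate animals, so p-values measure only how much these samples vary, and that variation may be technical.

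Olfr2 is an odorant receptor, a G protein-coupled receptor of the family that detects smells in the nose, and it is known to respond to the aldehyde octanal. In vascular macrophages this receptor has been linked to NLRP3 inflammasome activity and interleukin 1 release. Macrophages of the arterial wall include resident cells, monocyte-derived inflammatory cells and foamy cells that take up lipid through scavenger receptors and process it in lysosomes. The question was which transcripts differ between macrophages that carry Olfr2 and those that do not.

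The Olfr2 transcript was not higher in the columns labelled Olfr2+. It had 7, 1 and 7 counts in Olfr2+ 3D, 4A and 4B, against 76, 0, 34, 25 and 10 counts in Olfr2- 1A, 3A, 3B, 4A and 4B. In counts per 1000000 of the column total (CPM), the level was 0.156 ± 0.113 (SD, n = 3 columns) under Olfr2+ and 0.894 ± 0.977 (SD, n = 5) under Olfr2-. The 0 counts of Olfr2- 3A allow a level of up to 0.0564 CPM, a limit that covers counting error only. By column the labels overlapped, because 3A lay below every Olfr2+ column and the other 4 Olfr2- columns lay above them. Summed per sample they did not: Olfr2+ samples 3 and 4 were at 0.207 and 0.119 CPM, below Olfr2- samples 1, 3 and 4 at 2.49, 0.400 and 0.474 CPM, which is opposite to the label. A two-sided exact permutation test gave p = 0.2 over the summed samples (2 against 3), the smallest p that design allows, and p = 0.179 over the columns, where the smallest is 0.0357. The 7 deeper Olfr2+ columns ran from 0 to 0.0263 CPM. At these counts the transcript gave no support to the label of the sort, and directions below are between libraries labelled Olfr2+ and libraries labelled Olfr2-.

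Both genes that encode the sort's surface markers were low or variable. Adgre1, which encodes F4/80, was at 84.3, 46.0 and 54.6 CPM in the libraries labelled Olfr2+ and at 9.48, 26.7, 134, 235 and 10.04 CPM in those labelled Olfr2-. Fcgr1, which encodes the Fc receptor CD64, was at 3.43, 0.77 and 1.24 CPM under Olfr2+ and at 4.396, 19.95, 4.18, 4.49 and 10.3 CPM under Olfr2-. Adgre1 overlapped between the labels. Fcgr1 was lower in all 3 libraries labelled Olfr2+ but was too low to enter the test. General macrophage genes ranged widely in level. Lyz2, which encodes lysozyme, was at 1320 to 2135 CPM under Olfr2+ and 716 to 7847 CPM under Olfr2-. Ctss was at 1371 to 4358 and 559 to 1866 CPM. Cd68 was lower, at 65.4 to 92.5 and 58.3 to 157 CPM, and Mertk and Cd163 did not enter the test.

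In the edgeR fit to all 5 summed samples no gene passed the test between the labels. Counts were summed per numbered sample, and 6463 of 47729 features, those at 10 CPM or more in at least 3 of the 8 columns, were tested with edgeR's quasi-likelihood test and Benjamini-Hochberg adjustment. edgeR called 0 genes higher (0.0% of those tested) and 0 lower (0.0%), and the smallest adjusted p was 0.667. In simulated counts this fit recovered 4 of 50 genes changed by 3 log2 units, so 0 calls do not show that the labels are alike. At an unadjusted p under 0.05 there were 427 genes, 6.61% of those tested, with 208 higher and 219 lower. With each column as a replicate edgeR also called 0, with 644 genes at an unadjusted p under 0.05, and limma-voom called 0 with 218. DESeq2 on the same summed samples called 130 genes higher and 233 lower, and gave no adjusted p for 132. Of its calls 123 did not overlap between the labels by column, 59 higher and 64 lower, and the rest overlapped. Without Olfr2- sample 4 edgeR called 3 higher and 14 lower, of which 2 did not overlap between the labels, and with no filter on low counts it called 51 higher and 53 lower of 42353.

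The spread within a label was large beside the difference between labels. The median size of the difference between label means was 0.77 on the log2(CPM + 1) scale. The median standard deviation of a gene was 1.41 over the Olfr2- columns and 1.31 over the Olfr2+ columns on the same scale. For 4761 genes (73.7%) the standard deviation of the Olfr2- columns exceeded the label difference. The median standard error of edgeR's log2 fold change was 1.30.

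Columns of one numbered sample were no more alike than columns of different labels. The correlation of log2(CPM + 1) across the genes tested was 0.51 to 0.55 (median 0.52) for the 3 pairs of columns from 1 sample. It had a median of 0.52 for the 10 pairs from other samples of the same label and of 0.53 for the 15 pairs across labels. These are correlations across genes, which are not independent replicates, and the columns share amplification chemistry and depth range. Between the 2 columns of a sample, 15.2% of genes in Olfr2+ 4, 12.6% in Olfr2- 3 and 16.0% in Olfr2- 4 were more than 10-fold apart. No pair of columns agreed within sampling noise: the chi-square of their counts, per degree of freedom, was 585 or more in every pair.

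**Figure D1:**
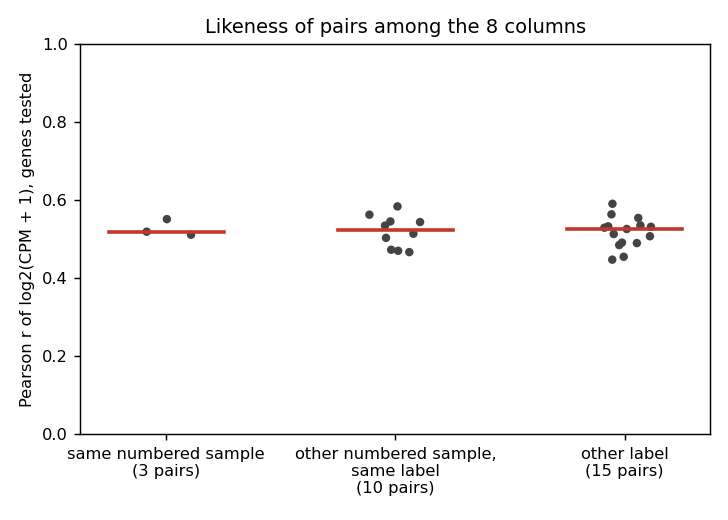
Pearson correlation of log2(CPM + 1) across the 6463 genes tested, for each of the 28 pairs of columns, by kind of pair; points are pairs and red bars are medians. The medians of the 3 kinds lie between 0.52 and 0.53.

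Single libraries held some transcripts at far higher levels than every other library. In 200 genes (3.09% of those tested) 1 column stood at 10 or more times the level of each of the other 7. Pygo2, which encodes a chromatin-binding partner in Wnt signalling, was at 12978 CPM in Olfr2- 3B and at 4.30 to 117 CPM in the other 7 columns. Trafd1, which encodes a zinc finger protein that restrains innate immune signalling, was at 12593 CPM in the same column and at 59.1 to 168 CPM elsewhere. Actl6a, which encodes a subunit of chromatin remodelling complexes, was at 6129 CPM in Olfr2- 4B and at 0.70 to 32.2 CPM elsewhere. In both numbered samples concerned, the second column did not share the high value. These 3 genes were chosen after their values were seen. At the other end, 18 genes stayed within 2-fold over all 8 columns, among them Rplp0, a ribosomal stalk protein, at 470 to 774 CPM, the cytoskeletal actin Actb at 11630 to 19767 CPM and the hyaluronan receptor Cd44 at 2118 to 3706 CPM.

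Some genes nevertheless lay entirely on one side. Every Olfr2+ column was above every Olfr2- column for 211 genes (3.26% of those tested) and below for 108 (1.67%), 319 in all (4.94%). With TMM scaling, which moves edgeR's median log2 fold change of all genes from 0.0032 to -0.15, the split was 171 higher and 163 lower. The excess of higher genes thus depends on the scaling. The genes higher without overlap had a median level of 51.8 CPM and the lower ones 22.9 CPM, against 48.9 CPM for all genes tested, on a scale that is not corrected for gene length. The nearest columns of the 2 labels were more than 1 apart on the log2(CPM + 1) scale for 36 of the higher and 10 of the lower genes.

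**Figure D2:**
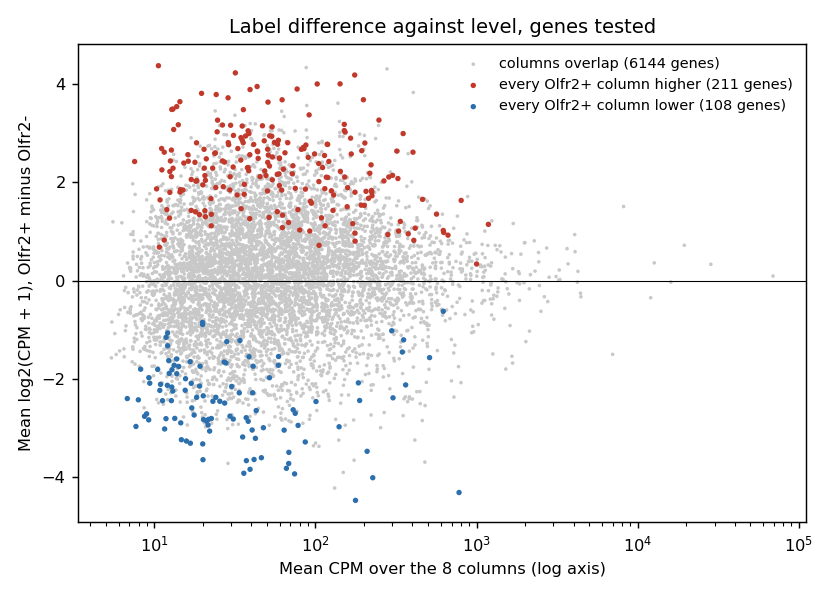
Mean log2(CPM + 1) of the 3 Olfr2+ columns minus that of the 5 Olfr2- columns (vertical axis) against the mean CPM over the 8 columns (log axis), 1 point per gene tested. Red and blue points are the 211 and 108 genes whose columns do not overlap, and grey points the 6144 whose columns do.

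The 12 higher genes with the widest gap between the labels, among protein-coding genes averaging at least 20 CPM, were Jak3, Orc2, Mnat1, Chpf, Sf3a1, Hint1, Ccdc115, Tmem106a, Chd6, Cmah, Srsf6 and Gak. Jak3, Orc2, Mnat1 and Cmah passed the 10 CPM filter only through the Olfr2+ columns. Chpf, Ccdc115 and Gak reached 10 CPM in too few Olfr2- columns to pass without the Olfr2+ ones. All 12 were chosen for this separation, so their differences are a description. edgeR's log2 fold changes ran from 2.59 (Gak) to 5.01 (Mnat1), and its adjusted p from 0.667 to 0.739. DESeq2 and TMM scaling used the columns on which these genes were chosen, so neither is separate support. DESeq2 called 11 of the 12, and 130 of all 6463 genes tested, higher. All 12 also separated under TMM scaling.

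Jak3, the kinase that signals from cytokine receptors with the common gamma chain, was at 64.6, 53.2 and 119 CPM in Olfr2+ 3D, 4A and 4B. In Olfr2- 1A, 3A, 3B, 4A and 4B it was at 4.76, 0.38, 3.86, 2.63 and 6.30 CPM. The lowest Olfr2+ library was thus well above the highest Olfr2- library, and edgeR gave a log2 fold change of 4.37 with SE 1.37 and an adjusted p of 0.667. Orc2, a subunit of the origin recognition complex that marks where DNA replication starts, was tight within the Olfr2+ label, at 53.9, 67.6 and 59.1 CPM. Its Olfr2- levels were 4.99, 4.72, 8.51, 9.97 and 2.96 CPM, all below 10 CPM. Mnat1, an assembly factor of the CDK-activating kinase, was at 164, 23.8 and 27.4 CPM against 3.87, 2.67, 4.08, 1.08 and 2.62 CPM. Column 3D was far above the other 2, and without Olfr2+ sample 3 the log2 fold change went from 5.01 to 3.11.

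Sf3a1, a component of the U2 small nuclear ribonucleoprotein, was at 111, 468 and 172 CPM under Olfr2+ and 10.04, 27.8, 18.4, 7.17 and 6.24 CPM under Olfr2-. Srsf6, a serine and arginine rich splicing regulator, was at 258, 305 and 494 CPM against 31.3, 89.1, 81.1, 48.4 and 15.4 CPM. Both genes kept all 3 Olfr2+ libraries high.

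Hint1, a purine nucleoside phosphoramidase, was at 359, 343 and 657 CPM against 24.4, 91.4, 26.5, 79.6 and 7.30 CPM. Tmem106a, a membrane protein described in macrophage activation, was at 222, 229 and 163 CPM against 11.4, 49.9, 20.01, 29.1 and 6.21 CPM. On the log2(CPM + 1) scale the SD of Hint1 was 0.52 over the Olfr2+ columns and 1.42 over the Olfr2- columns, and that of Tmem106a 0.27 and 1.10. Chpf, an enzyme that polymerises chondroitin, was at 42.3 to 167 CPM under Olfr2+ and 1.35 to 10.02 CPM under Olfr2-. Cmah, the hydroxylase that makes N-glycolylneuraminic acid, was at 26.04 to 92.3 CPM against 2.43 to 8.27 CPM. The chromatin remodeller Chd6, the clathrin uncoating kinase Gak and Ccdc115, a factor in assembly of the vacuolar proton pump, had Olfr2+ levels between 39.4 and 182 CPM and Olfr2- levels between 0.97 and 24.7 CPM.

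The 12 lower genes with the widest gap were Rpe, Rnf157, Rfc2, Synpo2, Birc2, Tns1, Inpp4b, Cdk1, Rae1, Cenpe, Pkd2 and Actr5, chosen in the same way. edgeR's log2 fold changes ran from -6.98 (Cdk1) to -2.50 (Tns1), with adjusted p from 0.667 to 0.768. Without Olfr2- sample 4 the value was -2.70 for Cdk1, -2.79 for Inpp4b, -2.91 for Cenpe (from -4.90) and -3.22 for Synpo2. Without sample 3 it was -1.82 for Rfc2 and -2.02 for Pkd2, and without sample 1 it was -2.09 for Birc2 and -3.48 for Actr5. DESeq2 and TMM scaling again used the columns on which the genes were chosen. DESeq2 called 10 of the 12, and 233 of all 6463 genes tested, lower. All 12 also separated under TMM scaling. Their gaps, from 0.77 (Actr5) to 1.55 (Rpe) on the log2(CPM + 1) scale, were narrower than those of the higher genes, from 1.47 (Gak) to 2.89 (Jak3).

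Birc2, an inhibitor of apoptosis that acts as a ubiquitin ligase in TNF receptor signalling, was the only 1 of the 12 above 10 CPM in any Olfr2+ library, at 39.3, 6.49 and 29.3 CPM. Its Olfr2- levels were 559, 98.0, 127, 117 and 146 CPM. The others of the 12 passed the 10 CPM filter only through Olfr2- columns. Their low Olfr2+ levels are therefore a description of how they were chosen. Tns1, which links integrins to actin, was at 8.89, 3.27 and 4.95 CPM against 33.1, 34.9, 17.9, 65.9 and 23.9 CPM, the most even of the Olfr2- sides. In several of the others the Olfr2- libraries differed widely among themselves.

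Cdk1, the kinase that drives entry into mitosis, was at 2.07, 2.21 and 0.535 CPM under Olfr2+, and at 4.89, 23.9, 8.45, 370 and 1007 CPM under Olfr2-. Sample 4 held both high values. Cenpe, the kinetochore motor, was at 3.22, 5.99 and 1.07 CPM against 13.1, 56.4, 11.5, 13.3 and 587 CPM. Only Olfr2- 4B was above 100 CPM. Rpe, an enzyme of the pentose phosphate pathway, was at 0.86, 1.25 and 0.60 CPM against 11.7, 36.6, 18.6, 5.59 and 239 CPM, and edgeR gave a log2 fold change of -5.76 with SE 1.79 and an adjusted p of 0.667. Inpp4b, a phosphoinositide phosphatase, was at 231 CPM in Olfr2- 4A and at 6.23 to 18.8 CPM in the other Olfr2- columns, above the 0.56 to 2.88 CPM under Olfr2+. The replication clamp loader subunit Rfc2 was at 1.94 to 3.86 CPM against 11.1 to 138 CPM.

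**Figure D3:**
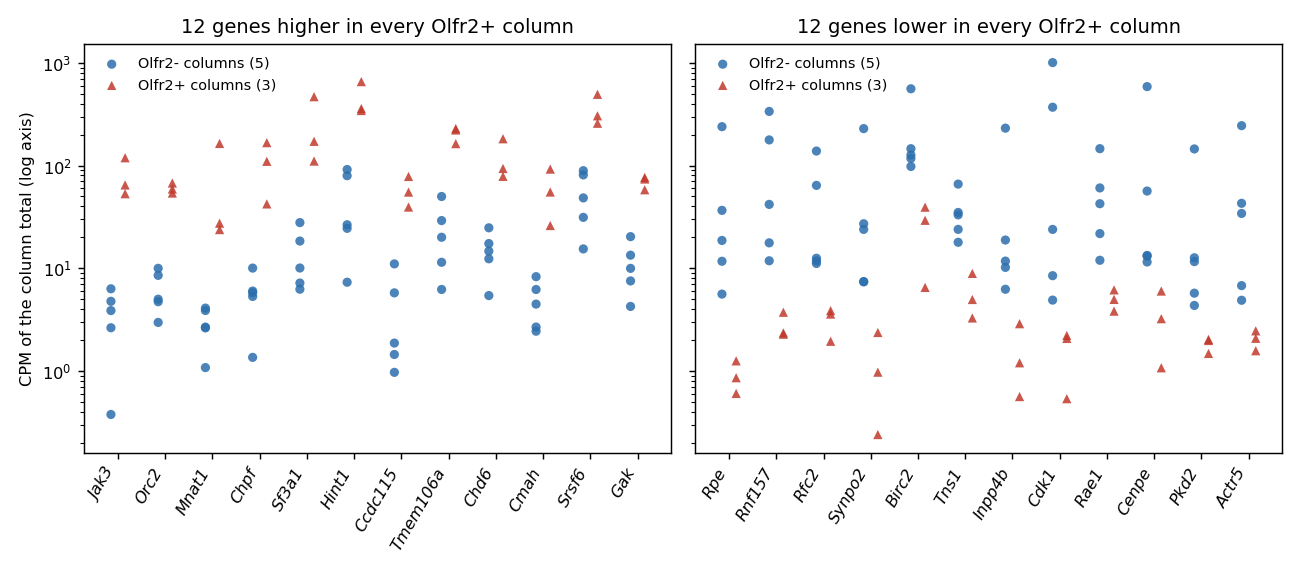
CPM of the column total (log axis) of the 12 higher and 12 lower genes with the widest gap, in each Olfr2- column (blue circles, n = 5) and each Olfr2+ column (red triangles, n = 3). Every triangle lies above every circle for its gene on the left and below on the right, and the circles of Cdk1 spread from 4.89 to 1007 CPM.

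The 7 deeper Olfr2+ columns did not share all of these levels. None of the 12 higher genes had all 7 deeper columns above every Olfr2- column, although for 8 of the 12 the median of the deeper columns was above. Jak3 had a median of 0.36 CPM there, with a range of 0.13 to 57.0 CPM. Of the 12 lower genes, 3 had all deeper columns below every Olfr2- column and 9 had a median below. The same counts over all genes tested were not taken, so these are a description. Low levels of the tested genes were more common in the deeper columns: 372 to 1668 were below 1 CPM there, against 43 to 279 in the 8 columns. The 10 CPM filter was set on those 8 columns, which favours this contrast. Over all features, 4449 to 8272 were at 10 CPM or more in the deeper columns and 4591 to 6244 in the 8. Tns1 ran the other way, at 114 to 358 CPM in the deeper columns. Columns 3A, 3B and 3C of the deeper set carry the same number as 3D, and 3C shares its library name, so deep and shallow columns of 1 label can be set side by side. Fibroblast genes, for example, summed to 33233 CPM in 3C and 2644 CPM in 3D, a gap within the Olfr2+ label.

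The 32 lists for macrophage states, pathways and other cell types held 509 entries, where a gene on several lists is counted each time. Of these entries 350 were tested and edgeR called 0. Without overlap, 16 were higher (4.57% of the entries tested, against 3.26% of all genes tested) and 5 were lower (1.43%, against 1.67%). Of these 21, the separation of Hk2, Ace, Meg3, Ctsb, Irak1, Rps29, Gpi1, Irf8 and Hspa1a was lost under TMM scaling. Counts per list below are to be read against the 4.94% of all genes tested that separated in either direction.

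Of 23 genes of foamy macrophages and lipid handling 19 were tested. Of these, 3 were higher without overlap and 0 lower, against 3.26% and 1.67% of all genes tested. The foamy list's median label difference was 0.16 on the log2(CPM + 1) scale, against 0.14 for all genes tested, and -0.02 under TMM scaling. Fabp4, a fatty acid carrier, was at 419, 177 and 311 CPM under Olfr2+ and at 8.60, 166, 47.8, 6.43 and 2.03 CPM under Olfr2- (log2 fold change 2.87, SE 1.31, edgeR adjusted p = 0.726). Olfr2- 3A came close to the lowest Olfr2+ library, and the other 4 were far below. Npc2, the lysosomal protein that binds cholesterol, was at 1011, 1962 and 1118 CPM against 360, 725, 213, 701 and 332 CPM. Ctsb, which encodes cathepsin B, was at 1193, 1130 and 1102 CPM against 809, 1074, 1083, 938 and 679 CPM, a separation of under 20 CPM. Fabp5, also of the foamy list, did not pass the filter and went the other way. It was lower without overlap under column-total, TMM and protein-coding scaling.

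The summed level of the foamy list was 6048 to 6495 CPM under Olfr2+ and 3689 to 5768 CPM under Olfr2-. It was the only list whose sums did not overlap, and they did overlap under TMM scaling, at 4851 to 6636 and 4008 to 7283 CPM. TMM scaling instead separated the sums of the toll-like receptor list, and protein-coding scaling also separated those of the ribosomal protein list. The defining foamy cell receptor Trem2 was too low on both sides to enter the test, at 0.33 to 1.42 CPM and 1.40 to 4.42 CPM. Gpnmb, another foamy cell marker, was at 7.68, 14.9 and 147 CPM against 252, 29.6, 74.5, 34.8 and 16.6 CPM, with overlap.

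Psap, which encodes the saposin precursor of lysosomes, overlapped between the labels, at 137 to 269 CPM under Olfr2+ and 75.3 to 3129 CPM under Olfr2-.

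Inflammatory genes overlapped between the labels, as did most genes tested (4.94% did not). All 20 tested members of the inflammatory list overlapped. The list's median label difference was 0.76 on the log2(CPM + 1) scale, against 0.14 for all genes tested, and 0.59 under TMM scaling. Il1b, which encodes interleukin 1 beta, was at 1441, 1209 and 1611 CPM under Olfr2+ and at 1045, 1296, 733, 761 and 570 CPM under Olfr2-, so that only Olfr2- 3A reached into the Olfr2+ range. edgeR's log2 fold change for it was 0.59, with SE 0.59 and an adjusted p of 0.869. Tnf was at 19.4, 220 and 26.7 CPM against 62.5, 43.8, 32.7, 32.6 and 6.52 CPM. Il6 was at 80.3, 235 and 8.27 CPM against 98.3, 6.50, 38.0, 13.1 and 4.86 CPM. Neither cytokine was high in all 3 libraries of a label.

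Of 10 cytokines and chemokines that the series' own description names, 6 were tested and all 6 overlapped. The study named them for its own Olfr2+ cells, so the list is not independent evidence of a direction. Il12a and Il23a stayed under 5 CPM in all 8 columns. Ccl5, a T cell and monocyte attractant, was at 1.33, 30.9 and 117 CPM against 2.17, 436, 28.0, 118 and 5.96 CPM.

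Of 12 tested genes of toll-like receptor signalling, Irak1, a kinase downstream of the receptors, was higher without overlap, at 248, 135 and 177 CPM against 14.4, 49.5, 27.1, 68.2 and 121 CPM. Among all genes tested 3.26% were higher without overlap. Cd14, the endotoxin co-receptor, was at 28.1, 913 and 1252 CPM against 26.3, 82.4, 252, 58.0 and 9.64 CPM. It was high in the columns of sample 4 and not in 3D.

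Of 18 tested interferon response genes 15 overlapped between the labels, 1 was higher and 2 were lower without overlap. Among all genes tested 3.26% were higher and 1.67% lower. Irf9, which completes the ISGF3 transcription factor, was higher at 175, 62.2 and 87.6 CPM against 23.4, 54.8, 32.2, 53.4 and 5.64 CPM. Irf8, a factor of the monocyte and dendritic cell lineage, was lower at 163, 171 and 181 CPM against 297, 184, 525, 488 and 372 CPM, and it overlapped under TMM and under protein-coding scaling. Ifit3, an interferon-induced antiviral protein, was lower at 2.41 to 3.99 CPM against 6.04 to 24.2 CPM. The deeper Olfr2+ columns held Ifit3 at 196 to 685 CPM.

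Monocyte, resident and antigen-presenting genes mostly overlapped, as did 6144 of all 6463 genes tested. In the monocyte list 1 of 15 tested genes separated, Ace, which encodes angiotensin-converting enzyme, at 340 to 492 CPM under Olfr2+ and 129 to 313 CPM under Olfr2-. The resident-like list had 1 of 8, Igf1, a growth factor, which was lower at 2.78, 27.7 and 9.77 CPM against 40.1, 68.6, 34.4, 112 and 30.5 CPM. Among 11 MHC class II genes H2-DMb1, a chain of the peptide-exchange factor, was higher at 314, 706 and 449 CPM against 219, 273, 61.9, 247 and 14.3 CPM. Of 16 MHC class I genes 0 separated. The macrophage identity list had 0 of 19, and its sums overlapped at 9329 to 11920 and 4753 to 12767 CPM.

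Stress and metabolic genes separated in small numbers per list, to be read against 4.94% of all genes tested. Atf3, a stress-induced transcription factor, was at 1056, 651 and 1003 CPM under Olfr2+ and at 284, 516, 289, 474 and 243 CPM under Olfr2-, and it was 1 of 21 tested immediate early genes. Hspa1a, an inducible heat shock protein, was at 455 to 642 CPM against 126 to 446 CPM, 1 of 15 tested. Hk2, the inducible hexokinase that starts glycolysis, was at 149, 871 and 682 CPM against 25.2, 59.6, 18.3, 53.2 and 125 CPM (log2 fold change 3.19, SE 1.06, edgeR adjusted p = 0.667). Sample 4 held the 2 highest values. Gpi1, the next enzyme of glycolysis, was at 69.8 to 85.4 CPM against 12.8 to 61.1 CPM, and these were 2 of 13 tested. Pgk1, also of the glycolysis list, did not pass the filter and went the other way. It was lower without overlap under column-total, TMM and protein-coding scaling. Ndufa2, a complex I subunit, was at 248 to 581 CPM against 44.9 to 209 CPM, and was 1 of 28. Of the 10 mitochondrially encoded genes tested mt-Atp6 separated, of 30 ribosomal protein genes Rps29, and of 7 cholesterol synthesis genes 0.

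Of 16 cell cycle genes tested, Cdk1 was lower without overlap and 0 were higher, against 1.67% and 3.26% of all genes tested. Top2a, a topoisomerase of dividing cells, was at 133, 112 and 136 CPM under Olfr2+ and 29.9, 301, 37.2, 97.7 and 442 CPM under Olfr2-. Mki67, the proliferation marker, was at 67.1, 18.3 and 32.6 CPM against 51.5, 271, 29.4, 70.4 and 9.73 CPM. Both overlapped.

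Markers of other cell types were present in all 8 columns, and their part in any separation was not tested. The 11 B and plasma cell genes summed to 37191 to 61827 CPM under Olfr2+ and 24310 to 48374 CPM under Olfr2-, with overlap, and to 245 to 5763 CPM in the deeper columns. Igkc, the immunoglobulin kappa constant gene, took most of these counts, at 24889, 33252 and 39601 CPM against 27174, 34328, 19216, 20958 and 28324 CPM. Cd79a, a chain of the B cell receptor, stayed at 0.26 to 3.70 CPM in the 8 columns. Fibroblast genes, all 10 tested, summed to 2644 to 5110 and 2216 to 4015 CPM with 0 separated, against 30989 to 40559 CPM in the deeper columns. In bulk samples fewer cells of a type and less RNA per cell cannot be told apart.

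Neutrophil genes summed to 662 to 698 CPM under Olfr2+ and 185 to 746 CPM under Olfr2-. Of 4 tested, Cxcr2, a chemokine receptor of neutrophils, was higher without overlap at 43.2, 12.1 and 39.7 CPM against 1.48, 0.075, 3.33, 3.58 and 0.998 CPM (log2 fold change 4.27, SE 1.24, edgeR adjusted p = 0.667). Cxcr2 passed the 10 CPM filter only through the Olfr2+ columns, and 3.26% of all genes tested were higher without overlap. The abundant neutrophil genes S100a8 and S100a9 overlapped. Dendritic cell genes (8 tested) and T and NK cell genes (7 tested) had 0 separated and sums of 520 to 2603 against 677 to 2290 CPM and of 53.1 to 367 against 46.2 to 581 CPM. Smooth muscle sums were at most 28.0 CPM and adipocyte and mesothelial sums at most 15.9 CPM, with 0 genes of either list tested.

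**Figure D4:**
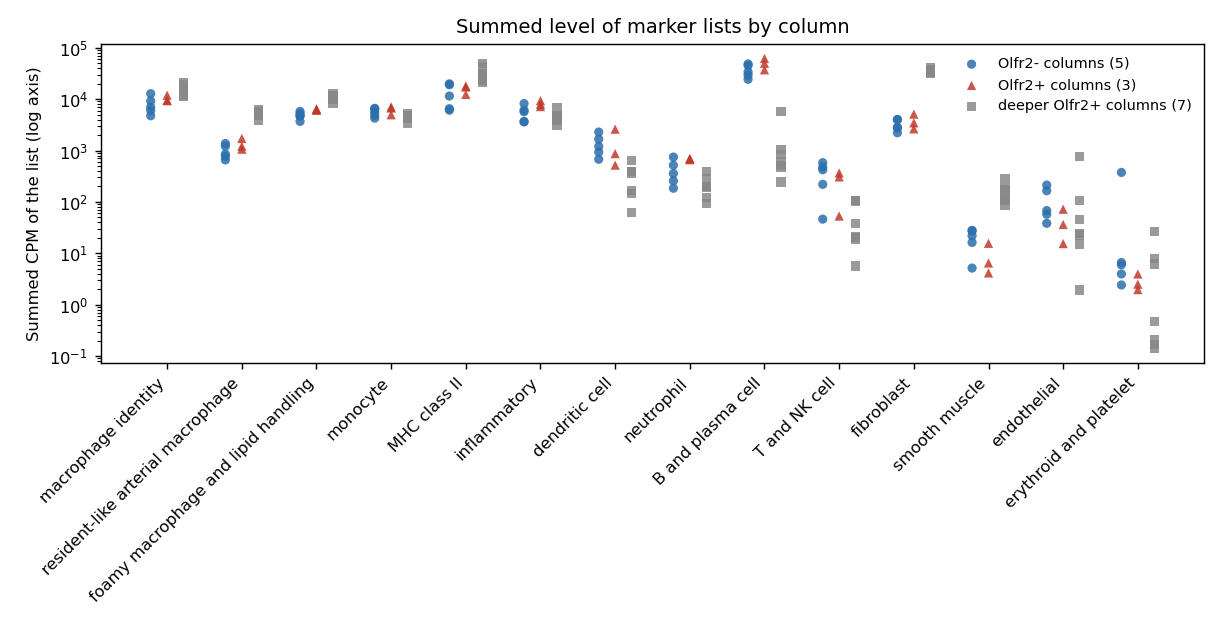
Summed CPM (log axis) of 14 gene lists in each Olfr2- column (blue circles, n = 5), each Olfr2+ column below the limit (red triangles, n = 3) and each deeper Olfr2+ column (grey squares, n = 7). Triangles and circles overlap in every list but the foamy macrophage one, at 6048 to 6495 against 3689 to 5768 CPM, while the squares stand apart for B and plasma cell and fibroblast genes.

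Counts of weakly detected features overlapped between the labels. Features at 10 CPM or more numbered 5148 to 6244 under Olfr2+ and 4591 to 6235 under Olfr2-. Features from 1 to under 10 CPM numbered 4343 to 5745 in the Olfr2+ columns, and 13786, 3839, 12435, 7931 and 11030 in Olfr2- 1A, 3A, 3B, 4A and 4B. Olfr2- 3A was therefore below the Olfr2+ range, and the other 4 were above it. The olfactory receptor genes other than Olfr2 summed to 44.3 to 105 CPM under Olfr2+ and 163 to 396 CPM under Olfr2-, with no overlap. These genes have near-identical relatives, so the count of any one is uncertain. With genes kept at 1 CPM instead of 10 in at least 3 columns, 243 genes were higher and 819 lower without overlap of 15386. The Olfr2 counts above lie in this low range, and the part of weak background signal in them was not tested.

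**Figure D5:**
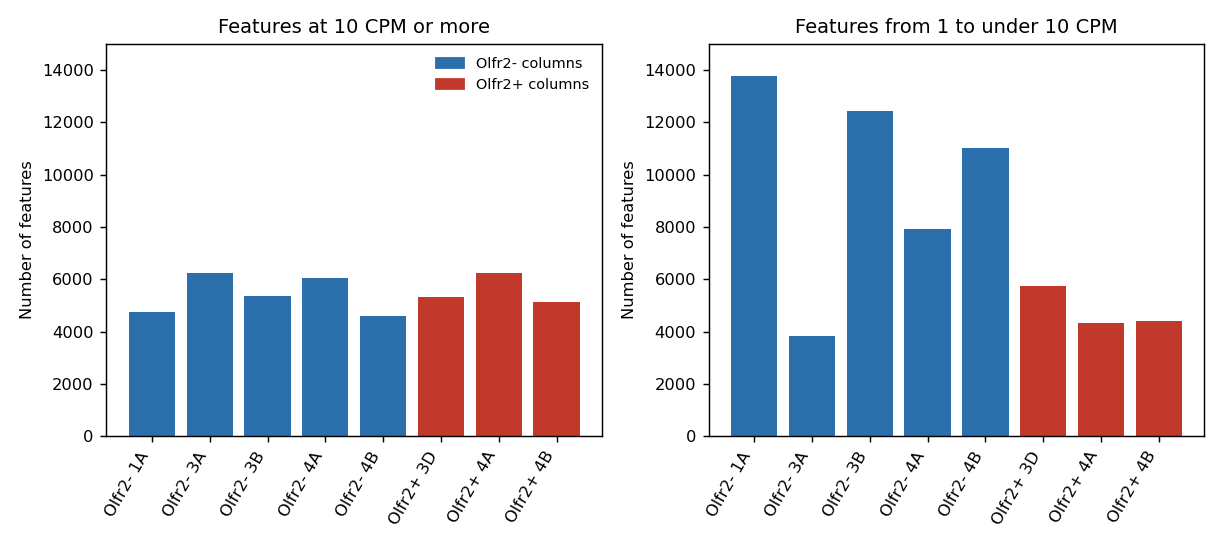
Number of features at 10 CPM or more (left) and from 1 to under 10 CPM (right) in each column, Olfr2- in blue and Olfr2+ in red. The left bars reach 4591 to 6244 in all 8 columns, and on the right 4 of the 5 Olfr2- bars exceed every Olfr2+ bar.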

How the data were processed

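Gene expression was measured by low-input Smart-Seq2 sequencing in 15 columns, of which 8 were used. The authors deposited raw, unnormalized counts for each gene. The build GRCm39 and the tools DRAGEN, STAR 2.7.1 and DESeq2 1.34 come, without their roles, from the submitters' processing notes. Which annotation release and strand setting served is not given in the sources used here. No coordinates are therefore printed, and counts of overlapping, antisense and paralogous genes are uncertain. Reads carry no molecular identifiers, so limits from counts cover counting error only.

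The members and gene lists were chosen with earlier results of these data known. Columns were summed per numbered sample, so Olfr2+ 3 held 33.8 M counts (M, 1000000) and Olfr2+ 4 held 67.5 M, while Olfr2- 1 held 30.5 M, Olfr2- 3 held 85.0 M and Olfr2- 4 held 73.9 M. Genes at 10 CPM or more in at least 3 of the 8 columns were tested with edgeR 4.0.16 (quasi-likelihood test, column totals as library sizes, Benjamini-Hochberg adjusted p under 0.05). Levels are CPM of the column total and label differences use log2(CPM + 1). A gene separates, or does not overlap, when all Olfr2+ columns lie above, or all below, every Olfr2- column, and this count carries no p. The genes named are Olfr2, the 12 higher and 12 lower protein-coding genes with the widest such gap and a mean of at least 20 CPM, listed genes that separated (1 is not reported here), and the most abundant listed genes. Some other listed markers, and 3 genes with 1 very high library, were named after their values were seen. Alternatives were TMM, RLE and protein-coding scaling, other filters, columns as replicates, DESeq2 1.42.0, limma-voom 3.58.1, the sample number as a block, a limit of 40 M, thinning, and leaving out each sample or column. The edgeR and DESeq2 fits by column under other scalings, and the count among genes averaging 100 CPM, were added after seeing the data. The edgeR fits were tested on counts simulated with their own dispersions. With summed samples edgeR recovered 0 of 50 genes changed by 1 log2 unit and 4 of 50 changed by 3. It recovered 22 of 50 changed by 5 and 47 of 50 changed by 7.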

Additional observations from a re-analysis of the deposited data

Results flagged for a closer look

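Among 57 values examined over the 5 Olfr2- columns (named genes and list sums, on a log2 scale), 4 had 1 column far from the other 4 by Dixon's criterion, which chance meets in about 1 of 20 groups. Birc2 was at 559.3 CPM in Olfr2- 1A and at 98.0 to 146 CPM in the others. Pkd2, which encodes the cation channel polycystin 2, was at 145.1 CPM in Olfr2- 3A and at 4.33 to 12.6 CPM in the others. The oxidative phosphorylation genes summed to 1295 CPM in Olfr2- 1A and to 4167 to 5183 CPM in the others. The erythroid and platelet genes summed to 375.2 CPM in Olfr2- 1A and to 2.42 to 6.63 CPM in the others; the haemoglobin chain Hbb-bs took 294 CPM of that. Without sample 1, 285 genes were higher and 194 lower without overlap, and edgeR called 0.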

How the results depend on the processing

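edgeR called 0 genes in either direction with TMM, RLE or protein-coding scaling, with its own expression filter, with each column as a replicate and below 40 M counts, and limma-voom called 0. Calls appeared with no filter on low counts (51 higher, 53 lower), with DESeq2 (130 and 233 on summed samples, 81 and 184 by column) and in 1 of the 5 fits that left out a sample, so those ran from 0 to 3 higher and from 0 to 14 lower. In the fits without Olfr2+ sample 3 or 4 the lone Olfr2+ sample is assumed to vary like the Olfr2- samples. The cause was not tested. With the replicate block (the sample number as a term) edgeR called 0 higher and 0 lower on summed samples and by column; the pairing rests on numbers alone, since the deviations of same-numbered samples had a correlation of -0.0374 across genes.

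Genes without overlap numbered 171 higher and 163 lower under TMM scaling, 231 and 102 under protein-coding scaling, 209 and 105 after thinning, 243 and 819 with a 1 CPM filter, 66 and 15 among 1802 genes averaging 100 CPM, and 648 and 145 below 40 M counts. Leaving out columns or samples, which makes separation easier, gave 266 to 1205 higher and 132 to 1277 lower. The Olfr2 difference, -0.74 CPM, ran from -1.03 to -0.34 CPM over the omissions and was -0.90 CPM under protein-coding scaling. The list medians of cell cycle, study cytokine, foamy, interferon and lysosome genes changed sign with the scaling or pseudocount. With 2 samples against 3 the permutation test of Olfr2 could not go below p = 0.2, so it says nothing of stability.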
